A study of Mus musculus with 40 samples.

Results

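Wdfy1 was followed across 40 mouse strains as 1 gene of the 23955 gene symbols in the deposited read-count table. It was chosen for its strain difference, with earlier results of these data known, so its levels are a description. The strains were 36 BXD recombinant inbred lines, the parental strain DBA/2J, the reciprocal F1 hybrids B6D2F1 and D2B6F1, and the parental strain C57BL/6J. Each strain gave 1 hypothalamus library, and for a BXD line the RNA of 3 to 6 hypothalami was pooled before the library was made. No treatment, age or sex is stated in the labels, and no strain was measured more than once. Errors on a single strain therefore cover counting only, and the animals behind the pooled RNA cannot be told apart.

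The WDFY1 protein joins WD repeats, which fold into a propeller, to a FYVE domain, a zinc-binding module that attaches proteins to phosphatidylinositol 3-phosphate on early endosomes. In cultured cells WDFY1 brings the adaptor TRIF, encoded by Ticam1, to the pattern-recognition receptors TLR3 and TLR4, whose signalling leads to interferon and inflammatory genes. A BXD line is homozygous at nearly every locus for the allele of C57BL/6J or of DBA/2J, so the lines can part into sets at a gene whose transcript level differs between these alleles. Genotypes were not used here, and lines are described only by their own level.

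The FYVE signature of Wdfy1 is shown beside that of its closest relative, Wdfy2, because a read shared between such genes could blur the values. Both stretches are coding strand, from GENCODE vM21 transcripts on GRCm38, and the capitals mark the 18 bases of codons 310 to 315, which encode the basic phosphoinositide-binding motif.
Wdfy1, chromosome 1: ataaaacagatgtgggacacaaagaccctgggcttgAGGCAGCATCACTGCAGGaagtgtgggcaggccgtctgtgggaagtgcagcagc
Wdfy2, chromosome 14: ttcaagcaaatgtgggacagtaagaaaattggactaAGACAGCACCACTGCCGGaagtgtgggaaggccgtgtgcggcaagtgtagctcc
The stretches had 67 of 90 bases in common. The reading frames had 410 codons in Wdfy1 and 400 in Wdfy2. The longest protein-coding Wdfy1 transcript has 4551 bases in 12 exons. None of its 4452 windows of 100 bases, the read length, occurred in an annotated transcript of another gene (0 windows), and the longest run shared with the Wdfy2 transcript was 20 bases. The files use the assembly mm9, while gene order below comes from GENCODE vM21 on GRCm38.p6. The only coordinates given are those of promoter windows, on GRCm38.p6.

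The 40 libraries held between 12.2 and 40.4 M counts each, the median being 23.6 M, and the summed level of the 22 hypothalamic identity markers ran from 586 to 1251 CPM in the lines, with 783 CPM in DBA/2J and 815 CPM in C57BL/6J. Wdfy1 had 459 to 2948 reads in the BXD lines. Levels are in CPM, read counts scaled to the library's total after TMM normalization, and are not corrected for transcript length.

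Wdfy1 divided the 36 BXD lines into 18 low and 18 high ones with no line between 41.2 and 80.7 CPM. The lines ran from 29.8 CPM in BXD51 through a median of 60.9 CPM to 118 CPM in BXD61, a 3.97-fold span, with a mean of 70.9 ± 35.9 CPM (SD, n = 36). The empty interval measured 0.97 on the log2 scale, or 1.96-fold. On that scale the SD over the lines was 0.80, against 0.041 from counting alone. In rising order the low lines were BXD51, BXD66, BXD100, BXD101, BXD45, BXD81, BXD95, BXD70, BXD48, BXD89, BXD71, BXD90, BXD96, BXD55, BXD85, BXD44, BXD50 and BXD43. The highest low line, BXD43, had 41.2 CPM, and its exact Poisson 95% interval spanned 38.8 to 43.7 CPM. The low lines lay within 1.38-fold of each other.

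In rising order the high lines were BXD103, BXD98, BXD67, BXD75, BXD97, BXD65, BXD73, BXD83, BXD79, BXD84, BXD29, BXD49, BXD87, BXD56, BXD63, BXD32, BXD64 and BXD61. BXD103, the lowest of them, had 80.7 CPM with an interval of 77.1 to 84.4 CPM. The next line, BXD98, had 101 CPM with an interval of 96.5 to 105 CPM, and the 17 high lines other than BXD103 lay within 1.17-fold of each other. Neighbours in either order mostly had overlapping counting intervals, so the order of adjoining lines is mostly not separable at this depth. The ends of a set were separable by counting. BXD51 had an interval of 28.2 to 31.5 CPM, below that of BXD43, and BXD61 had 114 to 123 CPM, above that of BXD98. BXD103 stood apart from both sets by more than its counting interval. Without it the empty interval was 1.29 on the log2 scale, from 41.2 to 101 CPM, or 2.45-fold. In the deposited normalized table, whose values are on another scale, 36 of 36 lines fell on the same side, at 694 to 956 for the low lines and 1874 to 2746 for the high ones.

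**Figure D1:**
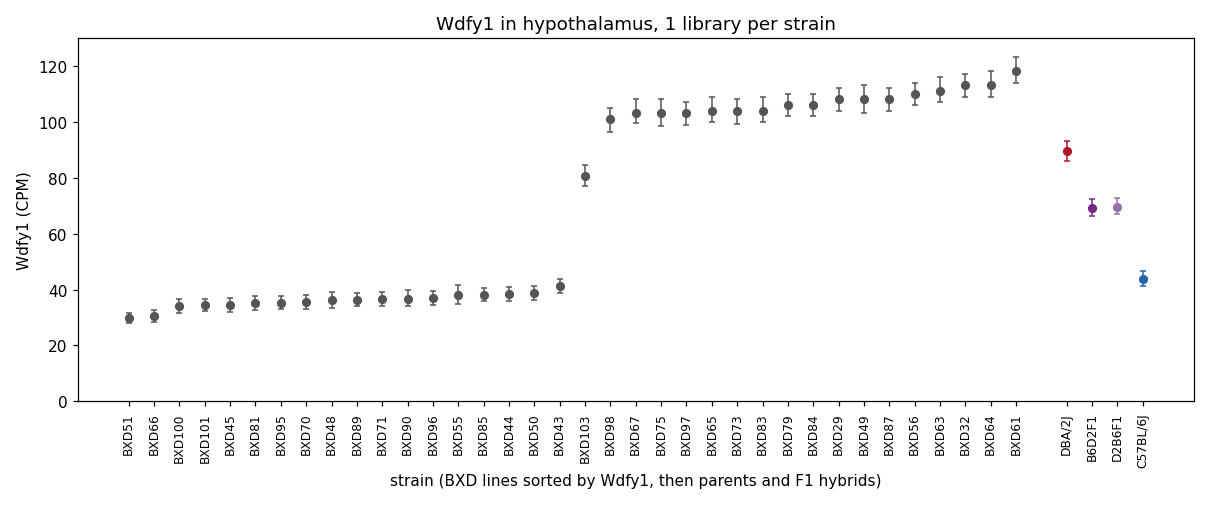
Wdfy1 level (CPM) in each of the 36 BXD lines in rising order, then in DBA/2J, both F1 hybrids and C57BL/6J, 1 library per strain, with exact Poisson 95% intervals that cover counting error only. The lines fall into 18 at or below 41.2 CPM and 18 at or above 80.7 CPM, and both hybrids lie in the empty interval.

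A separation of this width was uncommon. Wdfy1 was chosen for its strain difference, so its ranks below are a description and not a test. Among 14472 genes with a mean of at least 1 CPM over the lines, the median SD was 0.15 and the median widest step was 0.04 log2 units, where a step had to leave at least 6 lines on each side. A step of at least 1 log2 unit was present in 66 of these genes, which is 0.456%. Wdfy1, at 0.97, ranked 75 by widest step and 152 by SD. It thus lay just under that line with BXD103 and above it without BXD103.

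Both parental libraries stood apart from the lines at other genes that part the lines. At the 66 genes with a step of at least 1 log2 unit, DBA/2J was the lower parent in 55, and in 49 of these it lay above every line of the lower set. Its median position in the empty interval was 0.17, on a linear scale from 0 at the lower edge to 1 at the upper edge, with quartiles of 0.09 and 0.21. C57BL/6J was the lower parent in 11 genes and lay above the lower set in 8 of them, with a median position of 0.16 and quartiles of 0.03 and 0.24. The higher parent lay at or beyond the upper edge in the median, at 1.04 for C57BL/6J and 1.09 for DBA/2J. DBA/2J lay between 10% and 90% of the interval in 63.6% of the 66 genes and C57BL/6J in 25.8%, where a BXD line did so in at most 8.33%. The parental values below come from these libraries, and the part of their composition in the Wdfy1 values was not tested. What the lines show stands without them, since no parental or hybrid library entered any fit.

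DBA/2J had 89.4 CPM of Wdfy1, against 43.9 CPM in C57BL/6J. The counts behind these values were 2360 reads in DBA/2J, with an interval of 85.9 to 93.1 CPM, and 1113 reads in C57BL/6J, with an interval of 41.3 to 46.5 CPM. The difference, DBA/2J minus C57BL/6J, was 1.03 on the log2 scale with a counting standard error of 0.052, or 2.04-fold. With 1 library a side it has no replicate check and no test. Of 12164 genes with at least 5 CPM in either parent, 77 (0.633%) reached 1 log2 unit in either direction. In DBA/2J 19 of these were higher (0.156%) and 58 were lower (0.477%), and Wdfy1 ranked 16 of the 19 by size.

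The hybrids lay between the parents and close to each other. B6D2F1 had 69.3 CPM, with an interval of 66.2 to 72.5 CPM, and D2B6F1 had 69.7 CPM, with an interval of 66.9 to 72.7 CPM. The parental midpoint of 66.7 CPM lay inside the interval of B6D2F1 and just under that of D2B6F1. On a linear scale from 0 at C57BL/6J to 1 at DBA/2J the positions were 0.558 for B6D2F1 and 0.568 for D2B6F1. The reciprocal difference, B6D2F1 minus D2B6F1, was -0.01 on the log2 scale with a counting standard error of 0.045, so no difference by direction of the cross was detectable at this depth.

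The BXD lines reached beyond both parental libraries. At most other genes with wide steps, too, the lower parent lay above the lower set of lines, as given above. All 18 low lines were below C57BL/6J and 17 of the 18 high lines were above DBA/2J, with BXD103 the single line between the parents, at a linear position of 0.808. Relative to the edges of the empty interval, 0 at the highest low line and 1 at the lowest high line, DBA/2J stood at 1.22 and C57BL/6J at 0.07. With BXD103 left out of the edges these positions were 0.81 for DBA/2J and 0.04 for C57BL/6J, so both parents then lay inside the interval.

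BXD103 was examined further because its Wdfy1 level stood apart, a choice made after that value was seen. Over the other 35 lines, 67 genes had an empty interval of at least 1 log2 unit, Wdfy1 among them. BXD103 lay inside that interval, between 10% and 90% of its width on the linear scale, for 1 of the 67 genes, Wdfy1, at a position of 0.663. The same measure gave a median of 1.49% of genes and a range of 0 to 8.33% for the other 35 lines, each judged against the rest. B6D2F1 lay inside for 83.3% of 66 such genes and D2B6F1 for 78.8%. The hybrids thus fell between the sets of lines at most such genes, and BXD103 did not.

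Genes that varied with Wdfy1 were sought over the 36 lines by the slope of each gene's log2 level on log2 Wdfy1 (edgeR quasi-likelihood). Of 14993 genes tested, 3 passed a Benjamini-Hochberg adjusted p of 0.05, which is 0.02%, and all 3 were lower in lines with more Wdfy1. The 3 were Ano7, Scg2 and D2hgdh, all on chromosome 1 like Wdfy1, and edgeR called 0 genes higher. DESeq2 called 23 genes, these 3 among them, with 11 lower and 12 higher. Without adjustment 1318 genes, or 8.79%, had a p under 0.05. The lines form 2 clusters by Wdfy1, so the slopes mainly set the low lines against the high ones.

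Scg2 encodes secretogranin II, a granin of dense-core secretory vesicles and the precursor of secretoneurin, and lies 2 protein-coding genes from Wdfy1. Its promoter is shown because Scg2 is the called gene nearest to Wdfy1. The window runs from 250 bases before to 50 after the RefSeq start, chr1:79439977-79440276, minus strand, RefSeq on GRCm38.p6.
Scg2: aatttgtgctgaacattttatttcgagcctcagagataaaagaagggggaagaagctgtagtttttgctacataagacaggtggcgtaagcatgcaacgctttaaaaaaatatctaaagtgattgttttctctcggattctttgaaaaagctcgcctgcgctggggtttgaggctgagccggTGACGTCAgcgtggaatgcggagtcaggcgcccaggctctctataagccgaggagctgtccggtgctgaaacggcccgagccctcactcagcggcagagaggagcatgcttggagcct
The capitals mark the cyclic AMP response element TGACGTCA, a palindrome that reads the same on both strands, 68 bases before the start. The same letters occurred in 588 of 32851 promoter windows of this length, or 1.79%. The letters TATAAA, searched on both strands, occurred in 13.6% of windows and not in this one on either strand. No entry for Wdfy1 was found in the promoter table.

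Scg2 ran from 1080 CPM in BXD98 through a median of 1278 CPM to 1650 CPM in BXD43. The 10 lines with the least Scg2 were all high Wdfy1 lines (10 of 10), and 9 of the 10 with the most were low ones. Its slope was -0.14 ± 0.026 (SE), with an edgeR Benjamini-Hochberg adjusted p of 0.032. No wide empty interval parted the lines by Scg2, the widest step being 0.03 log2 units. The parents did not follow the slope. DBA/2J had 1198 CPM and C57BL/6J had 1171 CPM, a log2 difference of 0.03 with a counting standard error of 0.012, and the hybrids had 1236 CPM in B6D2F1 and 1243 CPM in D2B6F1.

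D2hgdh, which encodes the mitochondrial enzyme that oxidises D-2-hydroxyglutarate, lies 161 genes from Wdfy1. It ran from 3.38 CPM in BXD49 through a median of 10.7 CPM to 13.8 CPM in BXD55. Its slope was -0.57 ± 0.11 (SE), with an edgeR Benjamini-Hochberg adjusted p of 0.032. D2hgdh had a step of its own of 0.73 log2 units, from 6.20 to 10.4 CPM, with 17 lines below it. In 31 of the 36 lines D2hgdh and Wdfy1 were on opposite sides of their steps, the exceptions being BXD29, BXD73, BXD81, BXD84 and BXD95. DBA/2J had 5.84 CPM and C57BL/6J had 11.5 CPM, a log2 difference of -0.97 with a counting standard error of 0.14. The hybrids had 8.68 CPM in B6D2F1 and 9.18 CPM in D2B6F1. At D2hgdh BXD103 was in the lower set, as its highest member at 6.20 CPM, against 5.37 CPM for the next line.

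Ano7, a member of the anoctamin family of membrane proteins, lies 151 genes from Wdfy1 and ran from 1.69 CPM in BXD97 through a median of 4.21 CPM to 6.45 CPM in BXD70. Its slope was -0.44 ± 0.073 (SE), with an edgeR Benjamini-Hochberg adjusted p of 0.00651, the smallest of all genes tested. Of the 10 lines with the least Ano7, 9 were high Wdfy1 lines, and of the 10 with the most, 9 were low ones. DBA/2J had 3.22 CPM and C57BL/6J had 3.70 CPM, and their log2 difference of -0.20 was within its counting standard error of 0.22. The hybrids had 3.59 CPM in B6D2F1 and 4.18 CPM in D2B6F1. At these levels a library held 42 to 198 Ano7 reads.

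The calls rested on all lines to different degrees. With each line left out in turn, Ano7 passed in 36 of 36 edgeR fits, with Benjamini-Hochberg adjusted p between 0.000766 and 0.0187. Scg2 passed in 23 of 36, with adjusted p from 0.00604 to 0.0788, and the call ended without BXD44, BXD49, BXD50, BXD51, BXD64, BXD65, BXD71, BXD79, BXD87, BXD96, BXD97, BXD101 or BXD103. D2hgdh passed in 16 of 36, with adjusted p from 0.00312 to 0.0786. Its call ended without any of these 13 lines and also without BXD32, BXD70, BXD85, BXD89, BXD90, BXD98 or BXD100. The slopes kept their sign in every one of these fits, at -0.48 to -0.42 for Ano7, -0.15 to -0.12 for Scg2 and -0.63 to -0.54 for D2hgdh.

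The next 2 genes lie on other chromosomes. They did not pass the threshold in the main fit but did so in some of the alternatives. Rit1, a Ras-like GTPase gene on chromosome 3, had a slope of -0.12 ± 0.024 (SE) and an edgeR Benjamini-Hochberg adjusted p of 0.0565. Scpep1, a serine carboxypeptidase gene on chromosome 11, had -0.17 ± 0.035 with the same adjusted p of 0.0565. Rit1 had an adjusted p of 0.0478 with edgeR on linear Wdfy1 and 0.0318 with the first principal component of the libraries as a covariate. It had 0.0411 with limma-voom and 0.00527 with DESeq2. Scpep1 had 0.0211 with edgeR without the 2 lines most distant from the median Wdfy1, 0.0334 with limma-voom and 0.00659 with DESeq2. Rit1 ran from 25.4 through a median of 32.2 to 38.5 CPM over the lines, with 33.5 CPM in DBA/2J and 33.1 CPM in C57BL/6J. Scpep1 ran from 18.9 through a median of 24 to 30.2 CPM, with 20.9 CPM in DBA/2J and 23.6 CPM in C57BL/6J.

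**Figure D2:**
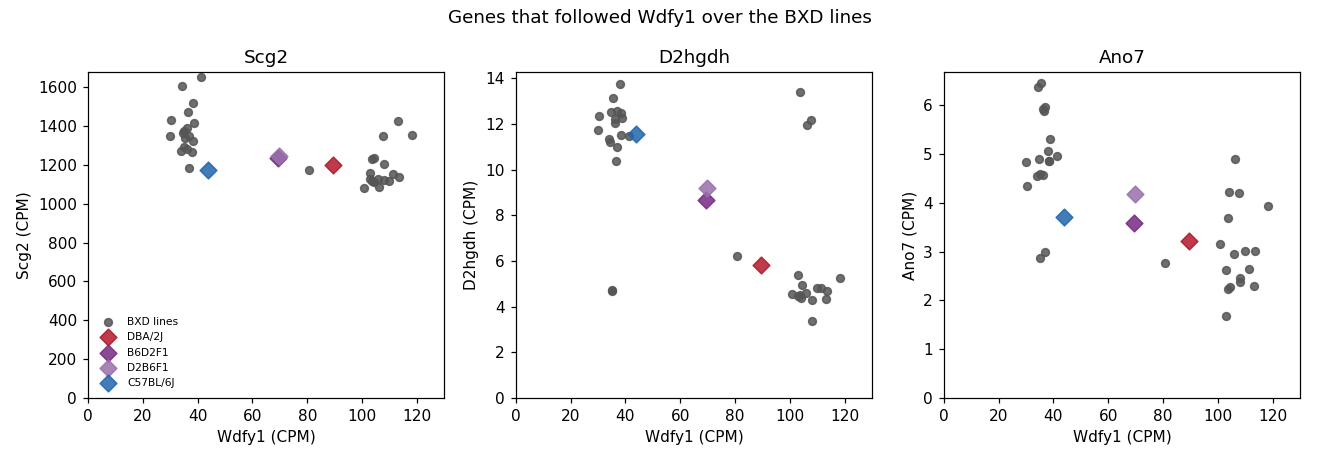
Levels of the called genes (CPM, vertical axes) against Wdfy1 (CPM, horizontal axes), 1 point per strain library, for the 36 BXD lines, DBA/2J, both F1 hybrids and C57BL/6J. High Wdfy1 lines tend to lie lower on the vertical axes, while DBA/2J and C57BL/6J differ in D2hgdh (5.84 and 11.5 CPM) and hardly in Scg2 (1198 and 1171 CPM).

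Within the sets none of the called genes had a correlation with Wdfy1 that passed, with r from -0.13 to 0.29. Pearson's r and Spearman's rho were computed within the 18 low and the 18 high lines for 19 genes, 38 relations in all, with 100000 permutations each, and no pooled value is given because the lines form clusters. Scg2 had r of 0.17 in the low lines and 0.29 in the high lines. Ano7 had 0.10 and 0.11 there, and D2hgdh had 0.08 and -0.13. Of the 38 values of r, 6 had a permutation p under 0.05 and 0 had an adjusted one (smallest 0.243). Of the 38 values of rho, 4 had a permutation p under 0.05 and 2 had an adjusted one.

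These 2 were Acsl3, a long-chain acyl-CoA synthetase gene, and Cul3, the scaffold of a family of ubiquitin ligases, both in the high lines. Acsl3 had a rho of 0.89 with a permutation p of 1e-05, the smallest that 100000 permutations can give, and an adjusted p of 0.00038. Its r was 0.48 (permutation p = 0.059). It reached 0.89 once BXD103 and BXD61 were dropped, the 2 lines most distant from the median Wdfy1 of the high lines. Cul3 had a rho of 0.80 with a permutation p of 0.00016 and an adjusted p of 0.00304. Its r was 0.55 (permutation p = 0.031) and was 0.85 without those 2 lines. High values of rho were frequent in the high lines. Among the 14993 genes, 32 (0.213%) reached an absolute rho of 0.89 and 334 (2.23%) reached 0.80 there, and the median absolute rho was 0.337 in the high lines and 0.226 in the low ones. In the low lines Acsl3 had a rho of 0.11 and an r of 0.25, and Cul3 had a rho of 0.38 and an r of 0.53. The difference between the sets was not tested.

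Next to Wdfy1, Scg2 was the single gene called. Of the 20 nearest protein-coding genes, 10 on each side, 17 were in the count table and 15 were tested, and 1 of the 15, Scg2, passed (0.02% over all genes). Slopes were above 0 in 10 and below 0 in 5, with a median of 0.015. None of the 15 reached 1 log2 unit between the parents (0 genes). Of 12164 genes with at least 5 CPM in either parent 0.633% did so, and a count of 0 among 15 thus says little about the neighbours. DBA/2J minus C57BL/6J ran from -0.46 to 0.37 on the log2 scale, against 1.03 for Wdfy1. Ap1s3, the sigma subunit of an endosomal clathrin adaptor and the adjoining gene on the side of Scg2, had a slope of -0.19 ± 0.054 and an edgeR Benjamini-Hochberg adjusted p of 0.237. It had 1.78 CPM in DBA/2J and 2.48 CPM in C57BL/6J. Pax3 and Fam124b were too low to test, at no more than 0.906 and 0.512 CPM in any line.

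Mrpl44, a protein of the mitochondrial ribosome, adjoins Wdfy1 on the other side, and the annotated gene bodies overlap by 126 bases on opposite strands. Its start lies within the Wdfy1 gene, so its promoter window, chr1:79775768-79776067, plus strand, RefSeq on GRCm38.p6, is shown with the first 50 transcribed bases in capitals.
Mrpl44: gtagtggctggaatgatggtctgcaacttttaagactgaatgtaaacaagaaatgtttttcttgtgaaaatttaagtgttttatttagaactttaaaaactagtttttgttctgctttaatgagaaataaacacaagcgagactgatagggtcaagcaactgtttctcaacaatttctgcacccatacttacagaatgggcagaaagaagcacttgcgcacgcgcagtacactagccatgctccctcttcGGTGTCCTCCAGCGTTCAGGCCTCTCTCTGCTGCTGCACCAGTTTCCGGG
Neither TGACGTCA nor TATAAA was found in it on either strand. Whether the authors counted by strand is not given in the sources used here, so reads in the overlap could belong to either gene. Mrpl44 ran from 21.8 through a median of 24.3 to 27.7 CPM over the lines, with 22.1 CPM in DBA/2J, 23.5 CPM in B6D2F1, 23.9 CPM in D2B6F1 and 24 CPM in C57BL/6J. Its slope was -0.041 ± 0.019 (SE), with an edgeR Benjamini-Hochberg adjusted p of 0.534.

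None of the other neighbours passed. On the side of Scg2, slopes were 0.060 ± 0.036 for the sphingosine-1-phosphate phosphatase gene Sgpp2, 0.015 ± 0.017 for the phenylalanyl-tRNA synthetase subunit Farsb and -0.00026 ± 0.054 for the monoacylglycerol acyltransferase gene Mogat1. They were 0.029 ± 0.026 for Acsl3, 0.077 ± 0.049 for Utp14b, which lies within the Acsl3 gene on the same strand in the annotation so that reads cannot always be told apart, and 0.17 ± 0.091 for the potassium channel subunit Kcne4. On the side of Mrpl44, slopes were -0.029 ± 0.015 for the protease inhibitor Serpine2, 0.0071 ± 0.025 for Cul3 and 0.065 ± 0.032 for the guanine nucleotide exchange factor Dock10. They were 0.080 ± 0.058 for Nyap2, 0.0080 ± 0.025 for the insulin receptor substrate Irs1 and 0.044 ± 0.025 for the rhomboid protease gene Rhbdd1. All errors are standard errors of the slope from edgeR.

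**Figure D3:**
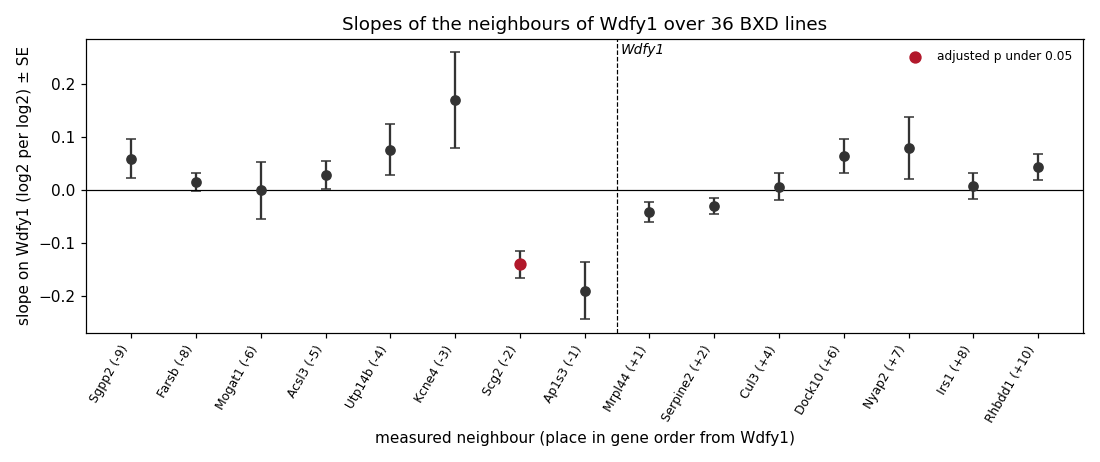
Slope of each of the 15 tested neighbours on Wdfy1 over the 36 BXD lines (log2 per log2, points with standard errors) in gene order, with the place of Wdfy1 as a dashed line. Scg2, in red, is the single neighbour past the threshold, at -0.14.

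Farther along chromosome 1 the share of genes with an unadjusted p under 0.05 was highest near Wdfy1. It was 28.6% (10 of 35) within 25 genes of Wdfy1, with 9 of these 10 lower in lines with more Wdfy1. It was 27.8% (27 of 97) from 26 to 100 genes away, with 11 higher and 16 lower. The share was 11.6% (16 of 138) from 101 to 200 genes away, 11.3% (33 of 293) from 201 to 400 and 8.68% (23 of 265) beyond. Chromosome 1 as a whole had 13.2% (113 of 855), against 8.51% (1193 of 14015) on the other chromosomes, which ranged from 6.19% on chromosome 8 to 11.2% on chromosomes 3 and 6. Genes near each other share the same lines, so these shares are descriptions without a test.

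**Figure D4:**
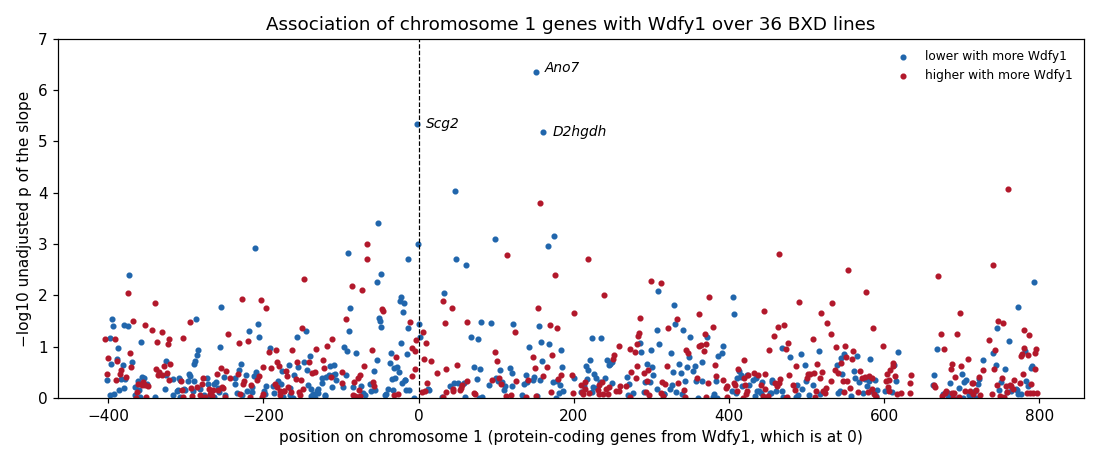
Unadjusted p of the slope on Wdfy1 (vertical axis, as -log10) for each tested gene of chromosome 1 against its distance in protein-coding genes from Wdfy1 (horizontal axis), blue where the slope is below 0 and red where it is above. The called genes are Scg2, 2 genes away, and Ano7 and D2hgdh, 151 and 161 genes away, all blue.

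Lines fell on the same sides at Wdfy1 and at other genes with wide steps only in part. Of the 66 genes with a step of at least 1 log2 unit, 5 lay on chromosome 1. The best match of sides, taken in the same or the opposite direction, was 24 of 36 lines for Mcm6, 249 genes away, and 23 for each of Mcmdc2, Tnni1 and Tnnt2. On other chromosomes or unplaced, 61 genes had best matches of 18 to 28 lines with a median of 21.

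Lists of related genes are given by their counts, beside 0.02% called and 8.79% with an unadjusted p under 0.05 over all genes tested. At that share a list of 30 genes would rarely hold a called one, so a count of 0 says little about a list. Of 28 tested members of the pathway around TLR3, TLR4 and TRIF, which holds receptors, adaptors such as Ticam1 and the kinases and factors after them, 0 passed, 12 slopes were above 0 and 16 below, and 5 had an unadjusted p under 0.05. Their median slope was -0.005, against -0.002 over all genes, of which 47.6% were above 0. The smallest p values belonged to the kinase gene Chuk at -0.075 ± 0.026, the transcription factor gene Irf3 at -0.12 ± 0.045 and the adaptor gene Tirap at 0.11 ± 0.043. Of 21 tested interferon-response genes 0 passed, 17 slopes were above 0 and 4 below, 5 had an unadjusted p under 0.05, and the median was 0.092. Trim25, a ubiquitin ligase of antiviral signalling, had -0.22 ± 0.056 with an edgeR Benjamini-Hochberg adjusted p of 0.168, and passed with DESeq2 at 0.0485. Oasl2, a member of the oligoadenylate synthetase-like family, had 0.18 ± 0.072.

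Relatives and endosomal partners are read against the same shares of 0.02% and 8.79%. Of 30 genes with a FYVE domain 0 passed, 20 slopes were above 0, 10 were below, 1 had an unadjusted p under 0.05, and the median slope was 0.007. The family members had slopes of 0.055 ± 0.039 for Wdfy2, 0.055 ± 0.027 for Wdfy3 and 0.11 ± 0.064 for Wdfy4. In the lines Wdfy2 ran from 6.32 to 12.2 CPM, Wdfy3 from 314 to 450 CPM and Wdfy4 from 1.34 to 3.09 CPM. Of 30 genes of phosphatidylinositol 3-phosphate synthesis and early endosomes 0 passed, 18 slopes were above 0, 12 were below, 2 had an unadjusted p under 0.05, and the median was 0.003. The transferrin receptor gene Tfrc had 0.10 ± 0.038, the sorting nexin gene Snx3 had -0.041 ± 0.020 and Pik3c3, the kinase that makes the lipid, had 0.037 ± 0.019.

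Markers of region and cell type were measured beside these slopes, and none of the 11 marker lists held a gene called by edgeR (0 members, against 0.02% over all genes). Over all genes tested, 8.79% had an unadjusted p under 0.05 with edgeR and 47.6% had a slope above 0. Hypothalamic identity genes had 18 of 21 slopes below 0, with a median of -0.087 and 7 unadjusted p under 0.05. They were led by Nr5a1 of the ventromedial nucleus at -0.23 ± 0.067, Hdc of histaminergic neurons at -0.18 ± 0.060 and Sim1 of the paraventricular nucleus at -0.12 ± 0.040. Oligodendrocyte genes had 10 of 10 slopes above 0, with a median of 0.089 and 5 unadjusted p under 0.05, Mbp standing at 0.14 ± 0.046, and their summed level ran from 4063 to 8107 CPM over the lines. Thalamus and cortex genes had 9 of 10 above 0, with a median of 0.052 and 3 unadjusted p under 0.05, led by Rora at 0.36 ± 0.079 with an edgeR Benjamini-Hochberg adjusted p of 0.0818, and passed with DESeq2 at 0.00945. Choroid plexus genes had 6 of 7 above 0, with a median of 0.09 and 3 unadjusted p under 0.05. Among them Ttr ran from 0.249 to 807 CPM over the lines, with a slope of 2.1 ± 0.61. Its slope was -0.031 with the first principal component of the libraries as a covariate, and it passed with DESeq2 at 0.0485. Striatum and septum genes had 8 of 9 below 0, with a median of -0.073 and 1 unadjusted p under 0.05.

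The other marker lists had medians between -0.035 and 0.039, and are read against the same shares of 8.79% and 47.6%. Astrocyte genes had 5 of 10 slopes above 0 (median 0) and 3 unadjusted p under 0.05, in both directions, with Gfap at -0.18 ± 0.080, Gja1 at 0.051 ± 0.024 and Slc1a2 at 0.074 ± 0.034. Neuronal genes had 8 of 12 above 0 (median 0.014) and 1 unadjusted p under 0.05, and tanycyte and ependymal genes had 4 of 10 (median -0.035) and 1. Microglial genes had 1 of 10 above 0 (median -0.026), endothelial and mural genes 10 of 12 (median 0.019) and meningeal genes 6 of 10 (median 0.039), each with 0 unadjusted p under 0.05. In bulk tissue fewer cells of a type and less RNA per cell cannot be told apart. The part of tissue composition in the slopes was not tested, and with the first principal component of the libraries as a covariate edgeR called 8 genes in place of 3.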

How the data were processed

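RNA of mouse hypothalamus was measured as stranded mRNA libraries read as 100-base single-end reads, 1 library per strain, per the labels' protocols. Per the submitters' processing notes the assembly was mm9 and the tools were TopHat2 2.0.8, HTSeq 0.5.4p3 and DESeq, without roles. Raw read counts, deposited as whole numbers, cover 23955 symbols, of which 2649 had 0 reads throughout, and all fits used them. The authors' normalized values, a signal per library, cover 15251 names, made by a scaling whose steps are not given in the sources used here, and it served as an alternative. Of all per-sample columns, 0 were left unmapped.

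CPM are counts over the library total times its TMM factor (0.986 to 1.02), and a prior count of 2 was added before log2. Intervals are exact Poisson at 95% and cover counting error only, since read copies were not marked. For the widest step the 36 sorted line values of a gene were compared, with at least 6 lines on each side. Lines on a side were counted, never averaged. The slope on centred log2 Wdfy1 was fitted over the 36 lines with edgeR 4.0.16 in R 4.3.3 (TMM, filterByExpr, robust quasi-likelihood F-test), with Benjamini-Hochberg adjustment over the 14993 genes other than Wdfy1. Standard errors are the slope over the square root of F. The fit was tested on simulated data. Alternatives used DESeq2 1.42.0 and limma 3.58.1. Pooled RNA replaces animals here, so p-values measure the spread between lines.

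Named genes were Wdfy1, the 10 nearest protein-coding genes on each side, all genes past the threshold or the 5 with the smallest p, the 3 smallest p of each list, and the Wdfy family. Values of some genes under this rule are not reported here. The gene and the 15 lists were chosen with earlier results of these data known, and 239 of 240 list entries were found. Gene order and sequences came from GENCODE vM21 and RefSeq on GRCm38.p6, and 23544 symbols matched.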

Additional observations from a re-analysis of the deposited data

How the results depend on the processing

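The level, SD, widest step and hybrid positions of Wdfy1 moved by less than their spread under DESeq2 size factors, plain library totals, a prior count of 0.5 and the deposited normalized table. The count of genes varying with Wdfy1, 3, was 3 with DESeq2 size factors, 4 without a filter, 4 on linear Wdfy1, 3 in the normalized table and 2 without the 3 shallowest libraries. Leaving out the 2 lines most distant from the median Wdfy1 gave 5. The count was 6 with limma-voom, 8 with the first principal component as a covariate, 23 with DESeq2, of which 11 were lower, and 1 without BXD103, an alternative chosen after seeing the data. Leaving out each line gave 1 to 10, with 1 for the 13 lines whose removal ended the call of Scg2. It gave 5 without BXD56, BXD63, BXD66, BXD75 or BXD83, 7 without BXD95, 9 without BXD67 and 10 without BXD61 or BXD81. The cause was not tested. D2hgdh had an adjusted p of 0.0565 without the 2 farthest lines, 0.14 without the 3 shallowest and 0.0515 without BXD103, where Scg2 also had 0.0515. Some slopes changed sign. Mogat1 was 0.0013 with DESeq2 size factors, 0.0062 with the principal component, 0.03 without the 2 farthest lines, 0.0043 with DESeq2 and -0.013 to 0.015 with a line left out. Cul3 was -0.017 with the principal component and -0.0075 to 0.017 with a line left out, and Irs1 -0.009, -0.0017 without the 3 shallowest and -0.0042 to 0.018. Ttr was -0.031 with the principal component, against 2.1. Of 450 slopes of 45 genes under the alternatives that keep every line or drop several, and without BXD103, 428 kept their direction and call, 10 gained the call and 4 lost it. Genes past the fold between the parents, 77, were 354 at 0.5 log2 units, 228 at a minimum of 1 CPM and 76 with DESeq2 size factors. No paired analysis was possible because replicate numbers only name the strains, with 1 library for each. With 1 library a strain, variation between animals and libraries of a strain was not measured.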
